A study of Mus musculus with 9 samples.

Results

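The EGF family of growth factors and its receptors were followed in organoids from mouse mammary tumours in which Cdh1, the gene for E-cadherin, was either intact or floxed. Its 9 genes were chosen by name and not by a cut on their values, though with earlier results of these data known. They were the 6 ligand genes Areg, Ereg, Hbegf, Tgfa, Btc and Epgn and the 3 receptor genes Egfr, Erbb2 and Erbb3. All 9 were among the 51912 genes of the count table, and all 9 passed the filter on low counts, as did 17289 genes in all. RNA sequencing covered 9 samples of FVB/NJ mammary tumour organoids, all carrying the MMTV::PyMT oncogene and the (R26)pCA::mT/mG reporter. The 4 WT samples were Cdh1+/+ and the 5 E-cad-KO samples were Cdh1fl/fl. Organoids of both groups received adeno-Cre overnight and then spent 48 h in collagen I with the growth factor FGF2, so WT organoids carried the same virus and recombinase. The MMTV promoter drives the polyoma middle T oncogene in the mammary epithelium, whereas Cre came from a virus that is not restricted to one cell type. The submitters describe the samples as biological replicates without naming animals, so a p-value here reflects only how far these libraries spread.

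EGF family ligands are made as membrane-bound precursors and are released by metalloproteases at the cell surface. Each then binds an ErbB receptor, which pairs with another receptor and switches on the ERK and PI3K pathways. Amphiregulin, the product of Areg, is the ligand through which oestrogen drives the growth of mammary ducts, and ErbB2 is an oncogene of breast cancer.

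Library totals ran from 44890302 to 64763645 counts. Levels are given in CPM, counts scaled to a common library size with TMM factors, where 1 CPM was 44.9 counts in the smallest library, and the lowest count of any of the 9 genes in any library was 508. Cdh1 itself lay at 150 to 246 CPM in WT and 79.0 to 118 CPM in E-cad-KO (log2 fold change -1.05, edgeR adjusted p = 0.0275), so the libraries labelled E-cad-KO kept Cdh1 reads. Leaving out WT 3, or any E-cad-KO library other than E-cad-KO 2, brought that adjusted p to between 0.0644 and 0.0904. All 5 luminal and all 7 basal epithelial markers were detected in every library. The summed level of 10 leukocyte markers ran from 17.1 to 384 CPM in WT and from 25.9 to 158 CPM in E-cad-KO, and all 10 were highest in WT 4. Of the fibroblast markers 4 of 7, of the endothelial markers 3 of 5 and of the adipocyte markers 4 of 4 were also highest in WT 4. The basal sum was lowest there, but its 7 markers were mixed, with 3 lowest and 2 highest in WT 4. The mast cell markers Cpa3 and Mcpt4 were at 0 in all 9 libraries. Kit, the other marker on that list, held 88.2 to 152 CPM in WT and 77.0 to 109 CPM in E-cad-KO. RNA came from whole gels, so more cells of a type and more RNA per cell cannot be told apart.

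Of the ligand genes, 4 lie side by side on chromosome 5 of GRCm38 in the order Epgn, Ereg, Areg, Btc, over 375.5 kb with 0 other protein-coding genes between them. In this cluster Epgn spans 91027464 to 91035215, Ereg 91074622 to 91093646, Areg 91139599 to 91148432 and Btc 91357261 to 91402994, the last on the other strand. The bases before the start of 3 of them are shown because the genes differed in how their levels varied between libraries, as described further on. They come from RefSeq on GRCm38.p6, whose table matched 6 of the 9 genes. Capitals mark matches, on either strand, to 6 motifs. The binding motif of AP-1 factors was searched as TGANTCA and that of TEAD factors as GGAATG. The cyclic AMP response element (CRE) was searched in full as TGACGTCA and also by its shorter core TGACG, which the full element holds on each strand. The TATA box was searched as TATAAA and the binding motif of SP1 as GGGCGG.
Areg, chr5:91139349-91139598, + strand: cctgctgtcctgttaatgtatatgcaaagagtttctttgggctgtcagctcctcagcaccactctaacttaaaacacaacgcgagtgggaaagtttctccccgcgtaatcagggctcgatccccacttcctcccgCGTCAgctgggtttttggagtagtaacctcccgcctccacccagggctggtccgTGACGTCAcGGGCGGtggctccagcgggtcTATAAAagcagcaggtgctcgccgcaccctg
Epgn, chr5:91027267-91027463, + strand: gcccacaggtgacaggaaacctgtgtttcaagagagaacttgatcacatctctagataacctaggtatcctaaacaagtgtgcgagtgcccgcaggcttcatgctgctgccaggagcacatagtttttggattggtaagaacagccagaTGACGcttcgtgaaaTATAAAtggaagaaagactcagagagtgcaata
Btc, chr5:91402995-91403244, - strand: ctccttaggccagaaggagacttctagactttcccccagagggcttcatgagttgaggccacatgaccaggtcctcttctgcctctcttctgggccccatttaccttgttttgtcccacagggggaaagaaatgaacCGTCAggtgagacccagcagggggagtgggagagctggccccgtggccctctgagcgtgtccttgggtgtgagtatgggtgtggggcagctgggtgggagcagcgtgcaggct

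The Areg window held a full CRE 54 to 61 bases before the start, which 1.55% of all 32851 promoter windows of 250 bases hold. Between that element and the start lay an SP1 match at 47 to 52 bases (32.7% of windows) and a TATA box at 26 to 31 bases (12.4%). A further CRE core stood 111 to 115 bases before the start. The Epgn window was 197 bases long because the GENCODE start lies before the RefSeq start. It held a CRE core at 44 to 48 bases and a TATA box at 28 to 33 bases. Of whole windows of 250 bases, which are longer, 17.8% hold a CRE core and 12.4% a TATA box. Cut to their first 197 bases, 12.4% and 9.05% of windows do, but that cut drops the bases nearest the start. In the Btc window the only match was a CRE core at 109 to 113 bases (17.8%). AP-1 letters were in none of the 3 windows, against 6.75% of windows of 250 bases, and TEAD letters in none, against 12.6%. A match of letters is a description of the sequence and was not tied to binding or to the values that follow.

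In E-cad-KO organoids, 3 ligand genes lay higher than in WT by about 1.4 to 1.5 times with 95% intervals above the WT level, but none of the 9 genes passed the test over all genes. These 3 were Areg at 1.52 times, Ereg at 1.46 times and Hbegf at 1.38 times the WT level. Epgn had the largest ratio of the 9 at 1.57 times, with a wide 95% interval from 0.902 to 2.75 times. By edgeR's quasi-likelihood test with Benjamini-Hochberg adjustment, 0 of the 9 genes were called at an adjusted p under 0.05, against 1.41% of all genes tested in either direction and 0.908% called higher. At an unadjusted p under 0.05, 3 of 9 were higher (Areg, Ereg and Hbegf) and 0 lower, against 8.74% of all genes higher. DESeq2 called the same 3 higher, against 5.01% of the genes it tested. With a quality weight for each library, limma-voom called Areg and Hbegf, against 1.70%. Of the 9 log2 fold changes 8 were positive, with a median of 0.26, while the median over all genes tested was -0.01.

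**Figure D1:**
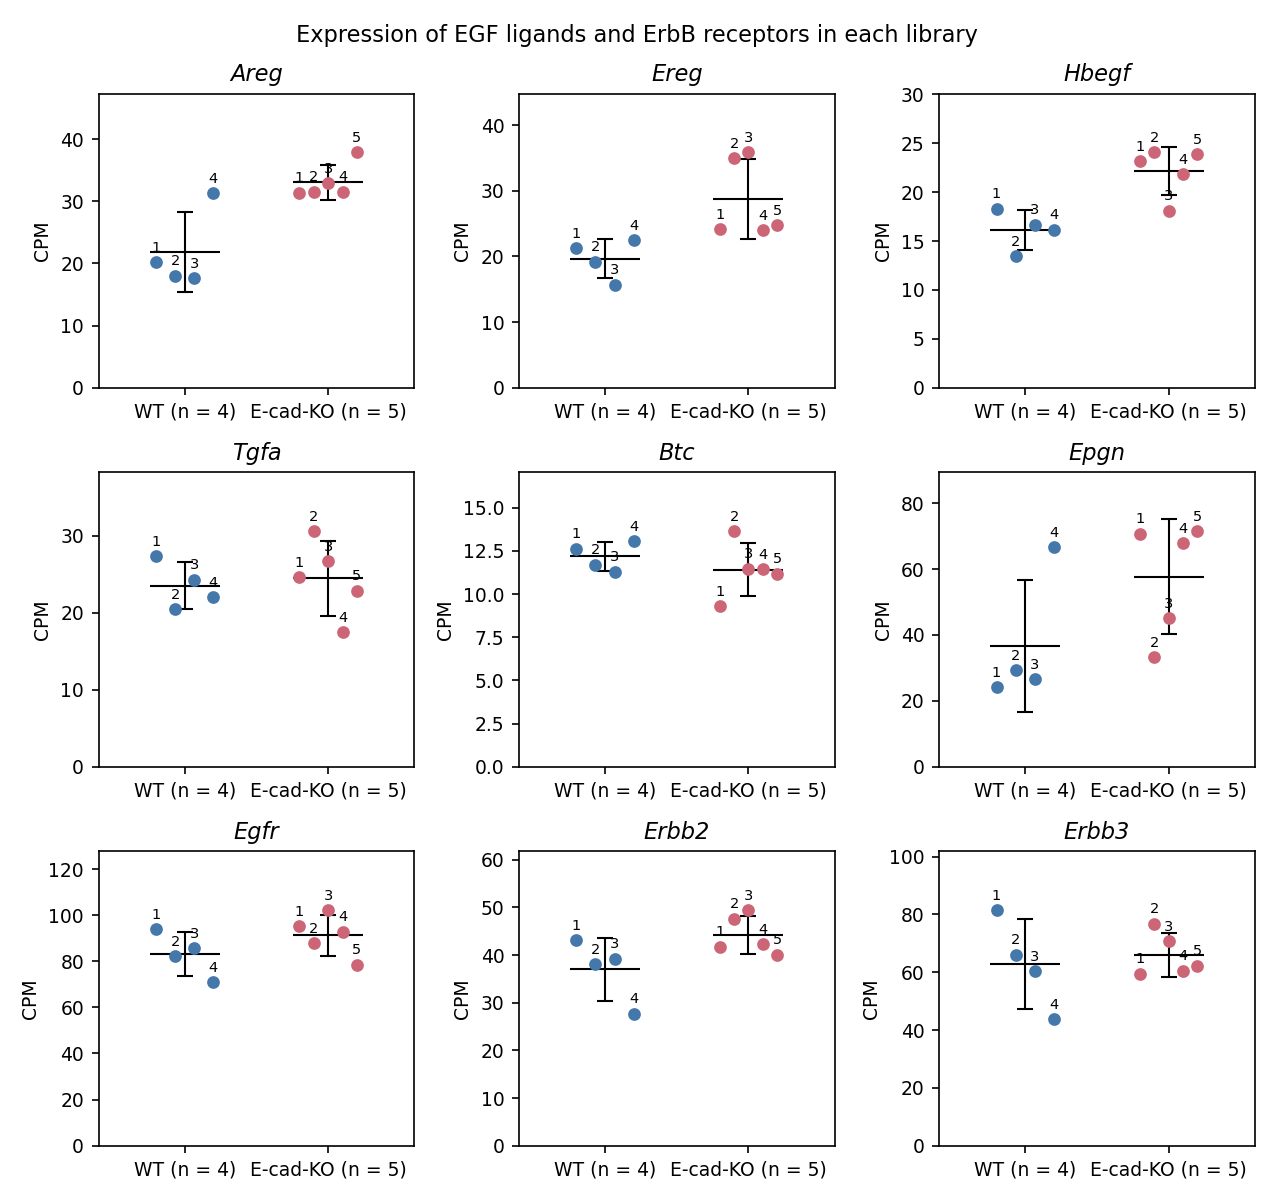
Level of each gene in each library on a linear axis in CPM, with WT in blue and E-cad-KO in red; the small digits are replicate numbers, the long bar is the mean and the whiskers are 1 SD. WT 4 lies with the E-cad-KO libraries for Areg (31.3 CPM) and Epgn (66.6 CPM) and lowest of the 9 libraries for Egfr, Erbb2 and Erbb3.

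Areg encodes amphiregulin, a ligand of EGFR. Its level was 20.2, 18.0, 17.6 and 31.3 CPM in WT 1 to 4, and 31.4, 31.5, 32.9, 31.5 and 37.9 CPM in E-cad-KO 1 to 5. WT 1 to 3 formed a narrow low group, and WT 4 stood just under the lowest E-cad-KO library. The means were 21.8 ± 6.43 and 33.0 ± 2.78 CPM (n = 4 and 5, SD), a log2 fold change of 0.60 (SE 0.16, 95% interval 0.24 to 0.96, edgeR adjusted p = 0.0962). Without WT 4, Areg was called, at a log2 fold change of 0.83 (SE 0.09, edgeR adjusted p = 0.00553), 1.78 times the level of the other 3 WT libraries. Without WT 4, 1.10% of genes were called higher. WT 4 was the highest WT library for Areg, so leaving it out widens the difference.

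Ereg encodes epiregulin, a ligand of EGFR and ErbB4. WT 1 to 4 held 21.3, 19.2, 15.7 and 22.5 CPM of Ereg, and E-cad-KO 1 to 5 held 24.2, 35.0, 35.9, 24.0 and 24.7 CPM. Every E-cad-KO library was above every WT library, with E-cad-KO 2 and 3 well above the other three. The log2 fold change of Ereg was 0.55 (SE 0.16, 95% interval 0.19 to 0.91, edgeR adjusted p = 0.119). Areg and Ereg were the 2 of 9 genes whose groups did not overlap with E-cad-KO higher, against 4.28% of all genes tested. For Areg this rested on a gap between 31.3 and 31.4 CPM, which closed with upper-quartile factors and with library totals alone. Upper-quartile factors left Ereg alone, and with library totals the genes that did not overlap were Ereg, Hbegf and Erbb2. The share over all genes with those scalings was not computed, so these lists show only how the result for Areg depends on scaling. Ereg shares exon bases with Gm19610 on the other strand, which held at most 0.386 CPM.

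Hbegf, on chromosome 18, encodes heparin-binding EGF, a ligand of EGFR and ErbB4. Its level was 18.3, 13.4, 16.7 and 16.2 CPM in WT 1 to 4 and 23.2, 24.1, 18.1, 21.8 and 23.9 CPM in E-cad-KO 1 to 5. The groups overlapped only through E-cad-KO 3, which lay below WT 1. Hbegf had the smallest p of the 9 genes, with a log2 fold change of 0.46 (SE 0.11, 95% interval 0.22 to 0.70, edgeR adjusted p = 0.0682). Without WT 4 its log2 fold change was likewise 0.46 (edgeR adjusted p = 0.0798).

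Epgn encodes epigen, a low-affinity ligand of EGFR. WT 1 to 4 held 24.0, 29.4, 26.6 and 66.6 CPM of Epgn, and E-cad-KO 1 to 5 held 70.7, 33.3, 45.1, 67.8 and 71.5 CPM. Its levels fell into a high set made of WT 4 and E-cad-KO 1, 4 and 5, and a lower set made of the rest, so they did not follow the genotype alone. The log2 fold change of Epgn was 0.65 with the widest interval of the 9 genes, from -0.15 to 1.46 (SE 0.35, edgeR adjusted p = 0.399). Without WT 4 the log2 fold change became 1.11 (SE 0.27, 95% interval 0.50 to 1.73), 2.16 times the level of the other 3 WT libraries, and was still not called (edgeR adjusted p = 0.0772). Then every E-cad-KO library was above every WT library for 3 of the 9 genes, Areg, Ereg and Epgn, against 6.72% of all genes. For Epgn this followed from leaving out WT 4, the only WT library above any E-cad-KO library, so it adds no separate support.

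The summed level of the 7 basal epithelial markers was lowest in the 4 libraries where Epgn was highest. This holds for the sum and not for each marker, as 2 of the 7 were highest in WT 4. The basal sum was 2524, 4019, 4040 and 3660 CPM in WT 4 and E-cad-KO 1, 4 and 5, and 5714 to 12475 CPM in the other 5 libraries. The leukocyte sum was 384, 51.0, 115 and 158 CPM in the former and 17.1 to 95.2 CPM in the latter. Between the groups the basal sum ran from 2524 to 12475 CPM in WT and from 3660 to 8421 CPM in E-cad-KO. Ereg was highest in E-cad-KO 2 and 3, where the basal sum was 7088 and 8421 CPM and the leukocyte sum 25.9 and 32.1 CPM. Yet in WT 1 and 2 Ereg was at 21.3 and 19.2 CPM, with basal sums of 12475 and 8346 CPM and leukocyte sums of 17.1 and 40.7 CPM. WT 4, with the lowest basal sum, had the highest Ereg of WT at 22.5 CPM. The part of other cell types in the levels of Areg, Ereg and Epgn was not tested.

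Tgfa and Btc, which encode TGF-alpha and betacellulin, differed little between the groups. Tgfa spans 86195223 to 86275719 on chromosome 6. It held 27.3, 20.4, 24.3 and 22.0 CPM in WT 1 to 4 and 24.6, 30.6, 26.7, 17.5 and 22.9 CPM in E-cad-KO 1 to 5, so that the E-cad-KO libraries enclosed the WT range. The log2 fold change of Tgfa was 0.06 (95% interval -0.27 to 0.38, edgeR adjusted p = 0.898), an interval that reaches from 0.828 to 1.31 times the WT level. Gm43917, which shares exon bases with Tgfa on the other strand, was at 0 in every library. Btc held 12.6, 11.7, 11.3 and 13.1 CPM in WT 1 to 4 and 9.3, 13.6, 11.5, 11.5 and 11.2 CPM in E-cad-KO 1 to 5. It was the only gene of the 9 with a negative log2 fold change, -0.09 (95% interval -0.34 to 0.15, edgeR adjusted p = 0.732). Of the chromosome 5 neighbours, Btc therefore showed neither the higher E-cad-KO level of Areg and Ereg nor the spread of Epgn, although a difference in fold change between the neighbours was not tested.

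Among the receptors, Egfr encodes the receptor that all 6 ligands bind, and it lies at 16752203 to 16918158 on chromosome 11. Its level was 94.0, 82.2, 85.8 and 70.9 CPM in WT 1 to 4 and 95.3, 87.8, 102.1, 92.8 and 78.4 CPM in E-cad-KO 1 to 5. The groups overlapped, and the lowest library was WT 4. The log2 fold change of Egfr was 0.13 (95% interval -0.07 to 0.34, edgeR adjusted p = 0.521).

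Erbb2, at 98412470 to 98437716 on the same chromosome, encodes a receptor with no known ligand that acts as the partner of the others. It held 43.1, 38.1, 39.2 and 27.7 CPM in WT 1 to 4 and 41.7, 47.6, 49.4, 42.2 and 40.1 CPM in E-cad-KO 1 to 5. Its log2 fold change was 0.26 (95% interval -0.01 to 0.52, edgeR adjusted p = 0.318). Without WT 4, the lowest library, the log2 fold change of Erbb2 was 0.14 (edgeR adjusted p = 0.409). Mien1 shares exon bases with Erbb2 on the other strand and went the other way, with 79.9 to 85.5 CPM in WT and 66.8 to 70.7 CPM in E-cad-KO. Whether counting used the strand is not given in the sources used here, so reads of the shared bases cannot be told apart.

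Erbb3, at 128567523 to 128589652 on chromosome 10, encodes the neuregulin receptor whose own kinase is impaired and which is the main link of the family to PI3K. It held 81.4, 66.1, 60.4 and 43.8 CPM in WT 1 to 4 and 59.6, 76.9, 70.8, 60.6 and 62.3 CPM in E-cad-KO 1 to 5. WT held both its highest and its lowest library. The log2 fold change of Erbb3 was 0.07 (95% interval -0.28 to 0.42, edgeR adjusted p = 0.879), and it was -0.07 without WT 4 (edgeR adjusted p = 0.796).

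**Figure D2:**
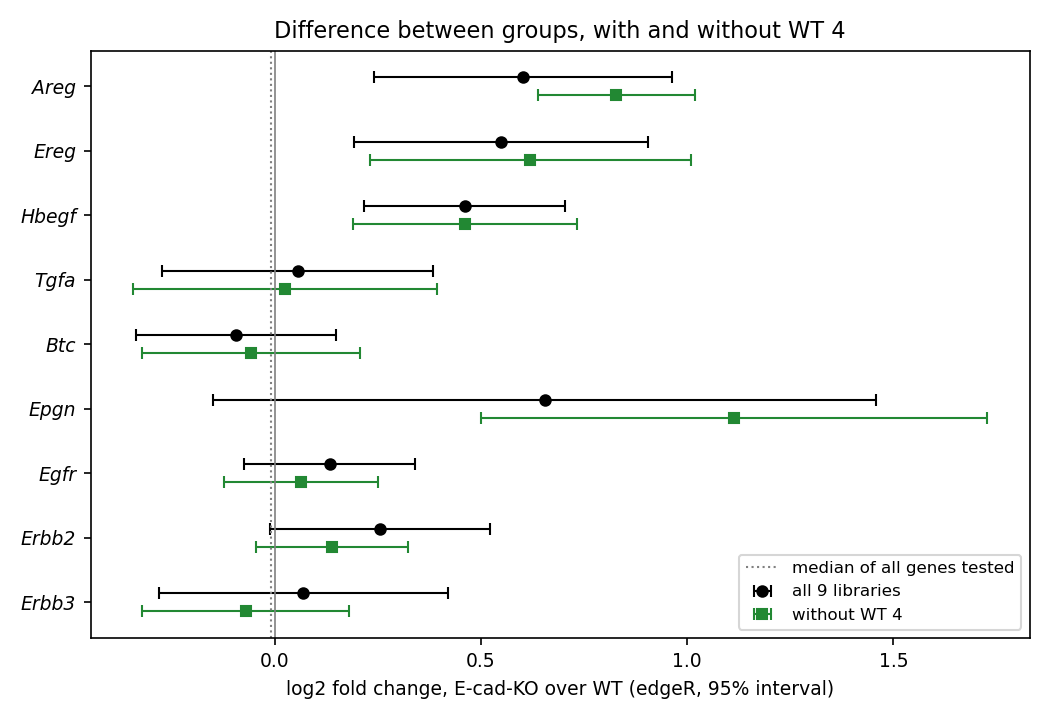
Log2 fold change of E-cad-KO over WT for each gene on the horizontal axis, with edgeR's 95% interval, for all 9 libraries (black circles) and without WT 4 (green squares); the dotted line is the median over all genes tested. The intervals of Areg, Ereg and Hbegf lie above 0 in both fits, and that of Epgn does so only without WT 4.

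All 3 receptors were lowest in WT 4, where the luminal marker sum was 3053 CPM against 3509 to 4211 CPM in the other WT libraries. Of the 5 luminal markers 3 were lowest in WT 4, and the basal sum was lowest there too, at 2524 CPM. A link between the receptors and cell makeup was not tested. Because the ligands and receptors of a library share its scaling, each ligand was also set against Egfr within the library, a ratio that no scaling changes and that was chosen after the values were seen. The log2 ratio of Areg to Egfr counts averaged -1.97 ± 0.53 over WT libraries (n = 4, SD) and -1.46 ± 0.24 over E-cad-KO libraries (n = 5, SD). For Ereg it was -2.09 ± 0.33 and -1.69 ± 0.28, and for Hbegf -2.37 ± 0.20 and -2.04 ± 0.29 (n = 4 and 5, SD). None of the 6 ratios passed a two-sided exact permutation test. The smallest p was 0.0873 for Areg and for Ereg (0.222 adjusted over the 6 ratios), where the smallest that 126 splits allow is 0.00794. Without WT 4 the differences in log2 ratio were 0.77 for Areg, 0.55 for Ereg and 0.99 for Epgn (unadjusted exact p = 0.0179, 0.0357 and 0.0357), and without E-cad-KO 3 that of Hbegf was 0.44 (unadjusted exact p = 0.0286). Without any other single library the unadjusted exact p ran from 0.114 to 0.179 for Areg, from 0.0857 to 0.214 for Ereg, from 0.2 to 0.446 for Epgn and from 0.0893 to 0.25 for Hbegf. The values of 0.0179 for Areg and 0.0286 for Hbegf are the smallest that those fits allow. The ratios of the groups overlapped only through WT 4 for Areg, Ereg and Epgn, and through E-cad-KO 3 for Hbegf. Leaving these libraries out fixed the separation, so the p-values under 0.05 add no support.

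Scaled to the length of a gene's exons, Epgn and Areg were the most abundant ligand transcripts. Over the 9 libraries Epgn stood at 26.7 ± 11.4 and Areg at 23.1 ± 6.08 CPM per kb (n = 9, SD), which did not differ beyond their spread. The receptors followed with 10.7 ± 1.83 CPM per kb for Erbb3, 7.87 ± 1.20 for Erbb2 and 7.74 ± 0.84 for Egfr (n = 9, SD), the last 2 within each other's spread. Below them came the ligands Ereg at 5.99 ± 1.63, Hbegf at 4.04 ± 0.79, Tgfa at 3.70 ± 0.60 and Btc at 2.60 ± 0.28 CPM per kb (n = 9, SD), of which Hbegf and Tgfa did not differ beyond their spread. Neighbours in this order changed places between the groups. Tgfa (3.62) stood above Hbegf (3.34) and Egfr (7.35) above Erbb2 (7.11) in the WT means, whereas Hbegf (4.60) stood above Tgfa (3.77) and Erbb2 (8.48) above Egfr (8.06) in the E-cad-KO means. With the longest transcript as the length, Hbegf (6.75 CPM per kb) came above Ereg (5.99), and Tgfa stood at 5.31.

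**Figure D3:**
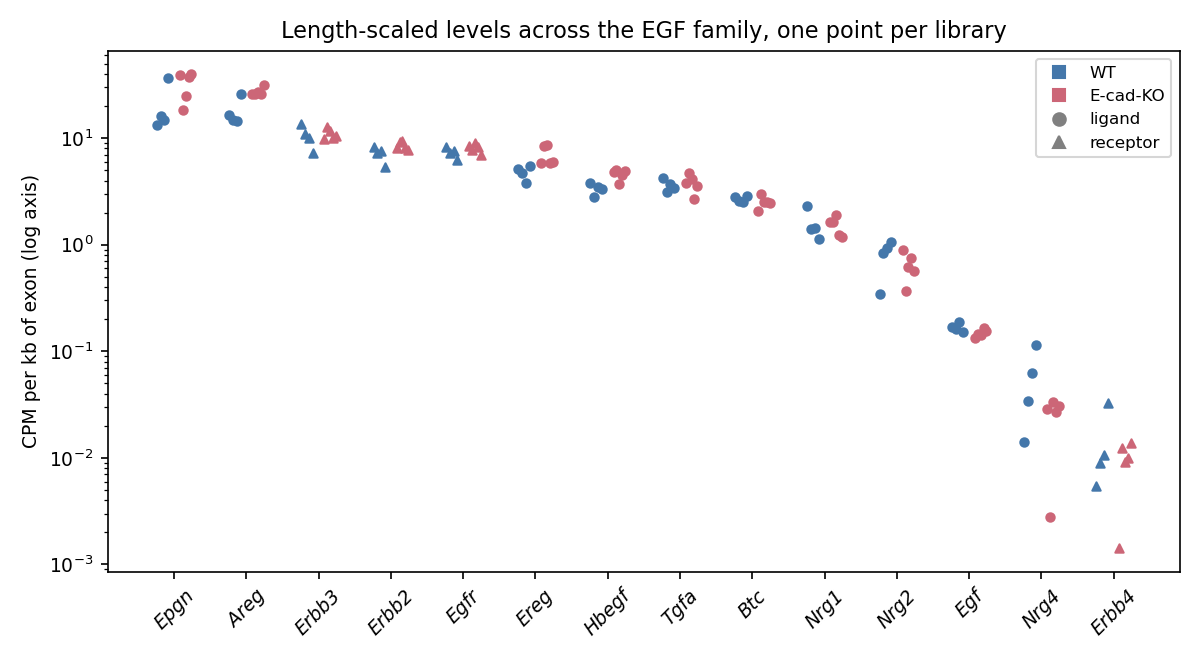
Level in CPM per kb of exon on a log axis, one point per library, for the ligands (circles) and receptors (triangles) of the family with any reads, ordered by their mean. Epgn and Areg lead, the 3 receptors follow at 7.74 to 10.7 CPM per kb, and Egf, Nrg4 and Erbb4 lie under 0.2.

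Of the other genes of the family, Nrg1 came close to the least abundant of the 9 and the rest were scarce. Nrg1, a neuregulin that binds ErbB3 and ErbB4, was the most abundant of them with 1.57 ± 0.50 CPM per kb for WT against 1.51 ± 0.30 for E-cad-KO (n = 4 and 5, SD). With the longest transcript as the length, Nrg1 (2.94 CPM per kb over the 9 libraries) and Btc (2.92) were level. Egf, the founding ligand, stood at 0.167 ± 0.014 and 0.148 ± 0.012 CPM per kb (n = 4 and 5, SD). Erbb4 had 1 to 22 counts per library and did not pass the filter, and Nrg3 had 0 counts in every library. Of the 6 genes 4 were tested, all 4 with a negative log2 fold change and 0 called by edgeR, also at an unadjusted p under 0.05. Of all genes 1.41% were called and 16.7% had an unadjusted p under 0.05, in either direction. Their smallest adjusted p was 0.395, for Nrg4 (log2 fold change -1.18, SE 0.65), followed by Egf (-0.17, SE 0.15) and Nrg2 (-0.30, SE 0.33).

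Summed over the 6 ligands, the length-scaled level was 45.9, 44.3, 42.7 and 77.7 CPM per kb in WT 1 to 4, and 81.4, 65.5, 71.1, 79.0 and 87.6 in E-cad-KO 1 to 5. WT 4 thus lay among the E-cad-KO libraries and the other WT libraries below all of them. Areg made up 34.2 ± 1.38% of this sum for WT and 35.5 ± 3.35% for E-cad-KO (n = 4 and 5, SD), and Epgn 36.9 ± 7.74% and 40.8 ± 8.80%. The smallest share was that of Btc, with 5.38 ± 1.11% and 3.35 ± 0.80% in the same order. The shares of each of the 6 ligands overlapped between the groups.

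**Figure D4:**
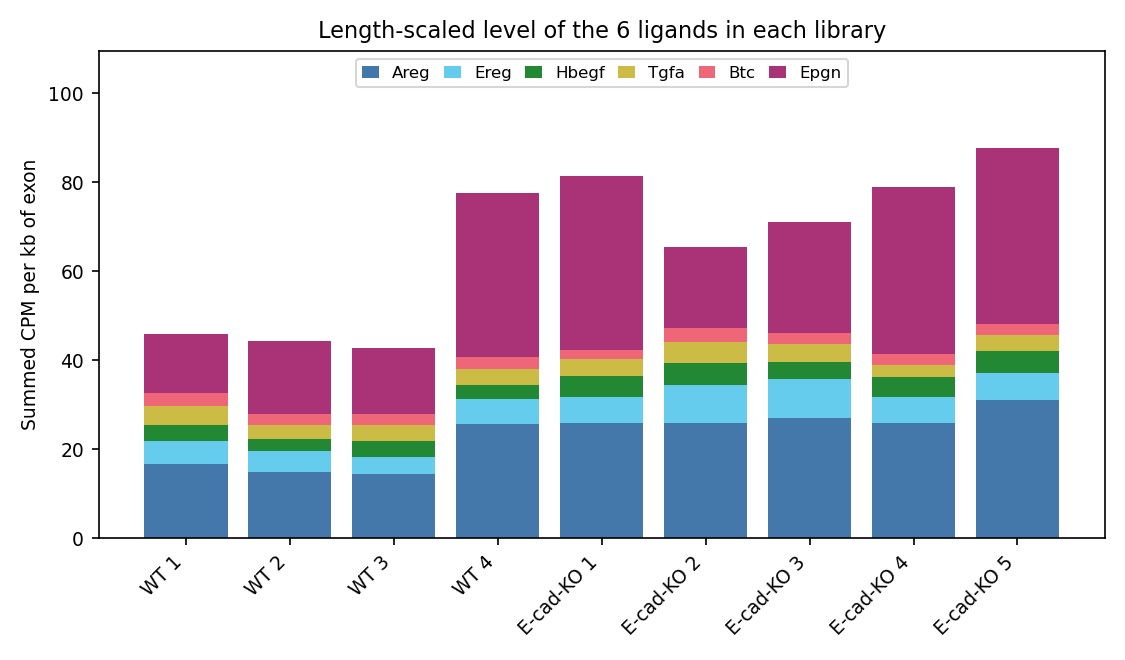
Stacked bars give the length-scaled level of each of the 6 ligands in each library, in CPM per kb of exon, from 0. Areg and Epgn make up most of every bar, and WT 1 to 3 reach 42.7 to 45.9 against 65.5 to 87.6 in E-cad-KO, with WT 4 at 77.7.

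Of 58 other genes of the pathway that were tested, 2 were called higher in E-cad-KO and 0 lower, against 0.908% of all genes called higher. Nkd2, which escorts vesicles carrying TGF-alpha to the cell surface and also restrains Wnt signalling, held 148, 167, 138 and 149 CPM in WT 1 to 4 and 251, 266, 288, 238 and 267 CPM in E-cad-KO 1 to 5. The 2 groups lay far apart, and Nkd2 rose by a log2 fold change of 0.80 (SE 0.07, edgeR adjusted p = 0.00433). Pik3cb, a catalytic subunit of PI3K, rose from 44.2 ± 2.63 to 54.5 ± 3.18 CPM (n = 4 and 5, SD), by a log2 fold change of 0.30 (SE 0.06, edgeR adjusted p = 0.046). With 1 library left out at a time, Nkd2 was called in 9 of 9 fits and Pik3cb in 0 of 9, its adjusted p then running from 0.0551 to 0.132. Pik3cb was also not called with upper-quartile factors (edgeR adjusted p = 0.0692) or with a filter of 1 count in any library (0.0533).

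Of the 12 genes for shedding and trafficking of ligands, all tested, 11 had a positive log2 fold change (median 0.09), 1 was called higher (Nkd2) and 0 lower, against 0.908% of all genes called higher. At an unadjusted p under 0.05, 3 of the 12 were higher and 0 lower, against 8.74% of all genes higher. Next in p were Frmd8, a partner of the iRhom proteins (0.23, SE 0.07, edgeR adjusted p = 0.13), and the metalloprotease gene Adam12 (0.43, SE 0.13, edgeR adjusted p = 0.141). Frmd8 shares exon bases with Frmd8os on the other strand. Adam17, the main protease that releases Areg, Ereg, Hbegf, Tgfa and Epgn, averaged 166 ± 15.2 CPM for WT and 171 ± 5.44 CPM for E-cad-KO (n = 4 and 5, SD). Adam17 and Adam10, the protease that releases betacellulin, fall outside the rule for naming genes and were chosen after their values were seen. Adam10 averaged 184 ± 28.1 and 204 ± 20.8 CPM (n = 4 and 5, SD), and neither was called (edgeR adjusted p = 0.808 and 0.552).

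Of 11 receptor inhibitors and ubiquitin ligases, 8 had a positive log2 fold change (median 0.07). By edgeR 0 were called, against 1.41% of all genes in either direction. At an unadjusted p under 0.05, 3 were higher and 1 lower, a criterion that 16.7% of all genes met in either direction. Lrig1, a membrane protein that promotes the breakdown of ErbB receptors, held 98.1, 116, 113 and 84.9 CPM in WT 1 to 4 and 143, 158, 152, 117 and 141 CPM in E-cad-KO 1 to 5. Its groups did not overlap, at a log2 fold change of 0.46 with an SE of 0.11 (edgeR adjusted p = 0.0673). DESeq2 called Lrig1 (adjusted p = 0.0027). Lrig1 shares exon bases with Slc25a26 on the other strand. Sh3kbp1, an adaptor of receptor endocytosis, stood at -0.20 (SE 0.07, edgeR adjusted p = 0.177) and Socs5 at 0.17 (SE 0.06, edgeR adjusted p = 0.214).

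Of 15 adaptors and effectors next to the receptors, 10 had a positive log2 fold change (median 0.15), 1 was called higher (Pik3cb) and 0 lower, against 0.908% of all genes called higher. At an unadjusted p under 0.05, 6 of the 15 were higher and 0 lower, against 8.74% of all genes higher. The phosphatase gene Ptpn11 (SHP2) stood at 0.24 (SE 0.06, edgeR adjusted p = 0.0958) and Pik3ca at 0.18 (SE 0.05, edgeR adjusted p = 0.12). Of 16 ERK feedback genes and immediate targets, 12 had a positive log2 fold change (median 0.08). By edgeR 0 of the 16 were called, against 1.41% of all genes in either direction. DESeq2 and limma-voom also called 0. In either direction they called 1206 of 14256 and 509 of 17289 of all genes they tested. At an unadjusted p under 0.05 by edgeR, 3 were higher and 0 lower, against 8.74% of all genes higher. These 3 were Phlda1 (0.17, SE 0.07), Dusp5 (0.34, SE 0.14) and the AP-1 subunit gene Fosl1 (0.46, SE 0.20), with edgeR adjusted p-values of 0.22, 0.246 and 0.282. Fosl1, whose exons overlap Ccdc85b on the other strand, was called without WT 4 (log2 fold change 0.71, edgeR adjusted p = 0.0491). The exons of Phlda1 and Dusp5 also overlap genes on the other strand, Gm28592 and AC137853.2 in that order.

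The genes that followed Erbb2 and Hbegf most closely from library to library were sought among 11218 genes with at least 5 CPM, after each group's mean was subtracted. For Erbb2 they were the tight junction gene Tjp3 (Pearson r = 0.996, Spearman rho = 1), Eml4 (r = 0.993, rho = 0.983) and Alkbh5 (r = 0.993, rho = 0.983). Over the 7 libraries left without the 2 farthest from the median, r was 0.997, 0.991 and 0.988. For Hbegf they were Rint1 (r = 0.931, rho = 0.85), Dagla (r = 0.926, rho = 0.817) and Ptpre (r = 0.905, rho = 0.867), falling to 0.736, 0.687 and 0.667 without the 2 farthest libraries. These are descriptions over 9 libraries picked as the highest of 11218 values, and the points share depth and cell makeup.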

How the data were processed

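The authors deposited raw, unnormalised gene counts with 1 column for each sample. RNA came from whole frozen gels by an RNeasy kit, and the mRNA libraries were stranded TruSeq ones, per the labels' protocols. The submitters' processing notes name Bowtie2, TopHat2, HTSeq and the GRCm38 build. Their versions, settings, strand option and annotation release were not given in the sources used here. Groups came from the sample titles. Gene names, positions, exon lengths and overlaps came from GENCODE M21 on GRCm38 (51719 of 51912 IDs matched).

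The main test was edgeR 4.0.16 (quasi-likelihood, robust, R 4.3.3) with TMM scaling and a model of group alone, on the 17289 genes that filterByExpr keeps by default, with Benjamini-Hochberg adjustment over all of them. Genes were called at an adjusted p under 0.05. Tests are two-sided. The SE is the log2 fold change divided by the square root of F, and intervals cover 95%. Alternatives were other size factors and filters, DESeq2 1.42.0, limma-voom with quality weights (limma 3.58.1), non-robust dispersions, the replicate number as a block, and libraries left out. The quality weights let limma-voom count some libraries less than others. Correlations used log2 CPM with a prior count of 2. No 2 libraries agreed within sampling noise (smallest chi-square per degree of freedom 14.8).

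The 9 genes, the lists and the marker sets were chosen with earlier results of these data known. The named genes are the 9, Cdh1, the 3 genes of each list with the smallest p plus called ones, and the 3 genes that most closely follow the ligand and the receptor with the smallest p. The test was first run on simulated counts with known changes, where DESeq2 made more false calls than edgeR or limma-voom. Of the calls there, 19.3% by DESeq2, 7.4% by edgeR and 5.5% by limma-voom were false. With no gene changed, DESeq2 made 17 calls and edgeR and limma-voom 0. Of the genes set there to differ by 1.5 times, edgeR recovered 43.3%, limma-voom 41.8% and DESeq2 58.2%. Of those set to differ by 2 times, the shares were 59.7%, 55.2% and 64.2% in the same order.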

Additional observations from a re-analysis of the deposited data

Results flagged for a closer look

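In 2 of the 18 groups of values (9 genes in each of the 2 groups of libraries) 1 library lay farther from the others than Dixon's 95% limit allows, and chance flags about 1 in 20 such groups. Epgn in WT 4 was at 66.6 CPM, with the nearest WT library at 29.4 CPM. Areg in E-cad-KO 5 was at 37.9 CPM, with the nearest E-cad-KO library at 32.9 CPM.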

How the results depend on the processing

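Over all genes, 244 were called. DESeq2 called 1206 and limma-voom 509, without both WT 1 and WT 4 there were 79, and without 1 library at a time 9 (without WT 3) to 334 (without WT 4). With upper-quartile factors the split was 123 higher and 151 lower, against 157 and 87. Of the 9 genes 0 were called with either other scaling, either other filter or non-robust dispersions, 3 by DESeq2, 2 by limma-voom, 1 without both WT 1 and WT 4 (Areg), and 0 to 1 without 1 library at a time. Areg, Ereg, Hbegf, Epgn, Egfr and Erbb2 kept a positive and Btc a negative log2 fold change under all 18 alternatives. With 1 library left out at a time, Tgfa ran from -0.036 (without E-cad-KO 2) to 0.157 and Erbb3 from -0.070 (without WT 4) to 0.222. Tgfa was also negative without WT 2 (-0.0059). The difference in the log2 ratio of Tgfa to Egfr then ran from -0.194 to 0.027 (without E-cad-KO 4). Of the other pathway genes, 2 in the main test, 1 was called with upper-quartile factors, with a filter of 1 count or without both WT 1 and WT 4, 7 by DESeq2, and 1 to 2 without 1 library at a time. The groups share replicate numbers 1 to 4, but same-numbered libraries did not deviate together (correlations -0.324, 0.235, -0.0303 and 0.284). With the replicate number as a block, edgeR called 0 genes over all genes, 0 of the 9 and 0 of the other pathway genes. In that fit 2418 of all 17289 genes, 5 of the 9 and 15 of the 58 other pathway genes had an unadjusted p under 0.05, in either direction. That fit left E-cad-KO 5 without a partner and spends more terms on the same libraries. The lowest count behind any value of the 9 genes was 508, so the spread between libraries, not counting error, sets the width of their intervals.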
